A study of Homo sapiens with 54 samples.

Results

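The genes described here serve melanin production and its hormone control: TYR, TYRP1, DCT, PMEL, MLANA, TRPM1, OCA2, SLC45A2, GPR143 and MC1R. They were chosen by name, with earlier results of these data known. They are the rows of an expression array table that the platform's annotation assigns to these 10 symbols. Of them, 9 were found among 17875 genes with 1 symbol, and DCT is not analysed here. All arrays measured WM266-4, an established human melanoma cell line, and the series holds 54 arrays in 18 groups of 3, lettered a, b and c.

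In the inhibitor arm, cells received DMSO or a drug against the RAF-MEK-ERK kinase cascade for 3 h or 24 h. The drugs were the RAF inhibitor LGX818 at 0.05 uM, the MEK inhibitors trametinib at 0.003 uM and MEK162 at 0.3 uM, and an ERK1/2 inhibitor, which the labels do not name, at 0.2 uM. In the shRNA arm, WM266-4 cells carried an inducible shRNA, either non-targeting (NT) or labelled shERK1 or shERK2, and doxycycline at 100 ng/ml was given for 3 or 7 days. Parental cells without an shRNA were measured at the same days, and their labels disagree on whether they received doxycycline. The results come from a single cell line, each target has a single shRNA label, and the labels do not say whether arrays a, b and c were grown apart. The p-values therefore measure the spread between these arrays, which may be technical.

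Melanin is made in the melanosome, an organelle related to the lysosome. TYR and TYRP1 are enzymes of its synthesis, PMEL builds the fibrils on which melanin is laid down, and MLANA is a melanosomal membrane protein used as a diagnostic marker of melanocytic tumours. OCA2 and SLC45A2 regulate the pH of the organelle, GPR143 is a receptor in its membrane, and TRPM1 encodes a cation channel. MC1R is the receptor for melanocyte-stimulating hormone at the cell surface and raises cAMP. MITF, a helix-loop-helix factor that binds E-boxes, is the best known activator of these genes in melanocytes, and ERK signalling is known to act on it.

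E-boxes are the sites that MITF binds, and the promoters of TYR, TYRP1, TRPM1, MLANA and MC1R are shown for that reason. Binding of MITF was not measured here. RefSeq windows of 300 bases (GRCh38.p14, from 250 bases before to 50 after a gene's annotated start) were matched for 7 of the 9 genes. The windows of GPR143 and OCA2 were searched and are not written out, and PMEL and SLC45A2 are named only. The GPR143 window (chrX:9765798-9766097, minus strand) lies inside the gene, downstream of the 5′ end of the locus given below. Both strands were searched for the E-boxes CATGTG and CACGTG. Matches of one cannot overlap matches of the other, but CATGTG can overlap its own reverse complement. Each window shown is written 5′ to 3′ on the gene's strand, with CATGTG in capitals on either strand, so that a match on the other strand reads CACATG.
TYR, chr11:89177625-89177924, plus strand: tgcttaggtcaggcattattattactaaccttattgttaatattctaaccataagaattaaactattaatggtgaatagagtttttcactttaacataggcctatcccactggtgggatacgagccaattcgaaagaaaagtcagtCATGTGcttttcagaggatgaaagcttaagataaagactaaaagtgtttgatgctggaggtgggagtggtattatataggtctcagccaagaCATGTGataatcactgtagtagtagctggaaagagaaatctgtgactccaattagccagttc
TYRP1, chr9:12693135-12693434, plus strand: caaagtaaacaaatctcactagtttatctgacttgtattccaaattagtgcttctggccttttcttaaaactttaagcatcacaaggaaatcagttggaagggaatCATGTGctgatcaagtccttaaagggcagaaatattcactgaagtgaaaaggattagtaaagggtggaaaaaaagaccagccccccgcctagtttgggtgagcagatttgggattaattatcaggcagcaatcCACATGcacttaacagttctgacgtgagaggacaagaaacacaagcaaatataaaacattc
TRPM1, upstream start, chr15:31161111-31161410, minus strand: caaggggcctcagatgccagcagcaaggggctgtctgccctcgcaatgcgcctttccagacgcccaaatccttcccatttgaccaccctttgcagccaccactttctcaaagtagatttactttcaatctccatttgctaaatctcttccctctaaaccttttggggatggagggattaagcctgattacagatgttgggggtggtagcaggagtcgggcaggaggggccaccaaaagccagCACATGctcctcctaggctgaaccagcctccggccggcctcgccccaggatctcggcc
TRPM1, downstream start, chr15:31101676-31101975, minus strand: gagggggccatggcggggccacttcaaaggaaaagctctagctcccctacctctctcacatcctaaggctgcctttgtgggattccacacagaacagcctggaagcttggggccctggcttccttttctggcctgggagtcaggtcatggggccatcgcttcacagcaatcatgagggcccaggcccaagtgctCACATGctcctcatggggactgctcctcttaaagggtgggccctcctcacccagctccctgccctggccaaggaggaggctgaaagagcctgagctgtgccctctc
MLANA, chr9:5890639-5890938, plus strand: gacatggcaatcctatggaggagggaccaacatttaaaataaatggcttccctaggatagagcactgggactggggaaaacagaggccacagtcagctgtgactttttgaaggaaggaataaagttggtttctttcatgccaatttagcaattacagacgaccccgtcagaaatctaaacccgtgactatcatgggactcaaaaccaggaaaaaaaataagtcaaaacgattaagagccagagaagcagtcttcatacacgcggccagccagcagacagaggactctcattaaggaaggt
MC1R, chr16:89918612-89918911, plus strand: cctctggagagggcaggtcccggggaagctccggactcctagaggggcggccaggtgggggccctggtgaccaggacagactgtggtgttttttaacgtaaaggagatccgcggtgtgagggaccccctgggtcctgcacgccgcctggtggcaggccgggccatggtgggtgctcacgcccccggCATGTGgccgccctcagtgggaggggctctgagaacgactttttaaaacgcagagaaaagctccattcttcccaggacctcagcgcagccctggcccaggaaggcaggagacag

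The motif CATGTG was found in the windows of 6 of the 7 genes. TYR held 2 matches, TYRP1 2, GPR143 2, OCA2 1 and MC1R 1, and each of the 2 TRPM1 windows held 1. The match nearest to the start lay 12 bases before it in TYR, 11 in TYRP1, 8 and 56 in the upstream and downstream TRPM1 windows, and 64 in MC1R. MLANA held no match in this window. Over all 35116 windows of the table, 11.1% held CATGTG, 7.3% held CACGTG and 17.6% held at least 1 of them. The genes lie, in the same build, at chr11:89177875-89295759 (TYR), chr9:12693385-12710285 (TYRP1), chr12:55954105-55966709 (PMEL), chr9:5890889-5910606 (MLANA) and chr15:31001065-31161160 (TRPM1). The others lie at chr15:27719008-28099315 (OCA2), chr5:33944623-33984693 (SLC45A2), chrX:9725346-9778602 (GPR143) and chr16:89918862-89920972 (MC1R).

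Values are log2 levels after RMA, so a difference of 1 is a 2-fold change. A gene was tested where its mean exceeded the median of all values, 7.86, in at least 1 group of the arm. This left 8 of the 9 genes in each arm. In all, 9703 genes were tested with the inhibitors and 9779 with the shRNAs. A gene is said to rise or fall where limma gave a Benjamini-Hochberg adjusted p under 0.05 in that comparison. OCA2 lay below that level in all 18 groups, with means from 4.73 to 5.42, and was not tested.

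On most arrays the control signals for RNA quality lay close together. For GAPDH, the 3′ control probes exceeded the 5′ ones by 0.139 to 0.53 on 51 arrays, and for ACTB by 0.842 to 1.468. Array a of shERK2 at day 7 stood apart at 1.534 for GAPDH and 3.411 for ACTB, array c of that group read 0.565 and 1.568, and array c of the ERK inhibitor at 3 h read 0.707 and 2.139. Array a of shERK2 at day 7 and array c of the ERK inhibitor at 3 h were each left out of the comparisons of their group. For the 8 tested genes, each call that then changed is given with both values. In the other comparisons of the arm these arrays entered the shared spread and were not left out singly. MAPK3, which encodes ERK1, was lower with shERK1 than with NT by 1.54 at day 3 (means 8.16 and 9.70) and by 1.40 at day 7 (8.15 and 9.55; adjusted p = 3.24e-08 and 7.45e-08), and the level of the target of shERK2 is not analysed here. Markers of other cell types were mostly below the level filter: 1 of 6 keratinocyte genes (KRT10), 1 of 6 fibroblast genes (COL1A2), 1 of 5 endothelial genes (KDR) and 0 of the 5 leukocyte genes in the table exceeded it. Their summed log2 levels ran over the groups from 35.6 to 37.4, 37.0 to 40.8, 25.9 to 29.2 and 20.2 to 22.6. COL1A2 rose by 0.19, 0.20, 0.21 and 0.25 with LGX818, trametinib, MEK162 and the ERK inhibitor at 24 h and KDR fell (-1.81, -2.09, -1.95 and -2.13). With shERK2 against NT, COL1A2 rose by 0.49 at day 3 and 0.84 at day 7 and KDR fell (-0.30 and -0.62), and their part in the results was not tested.

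Reads of TYR and MC1R on the arrays with the highest control signals departed from those of the other arrays of their group. Array a of shERK2 at day 7 read TYR 1.14 below and MC1R 0.69 above the mean of the other 2 arrays. For MC1R arrays b and c of that group were also apart, at 9.64 and 10.06. Array b stood at -0.66 against a mean that includes array a. Array c of the ERK inhibitor at 3 h read TYR 0.26 below and MC1R 0.45 above. On the 48 arrays outside these 2 groups, the same distances ran from -0.14 to 0.14 for TYR and from -0.32 to 0.38 for MC1R. Both arrays thus lay outside the range of the rest for TYR, in the downward direction, and for MC1R, in the upward direction. For TYRP1 and SLC45A2 they did not leave that range, and for PMEL the ERK inhibitor array did (0.35, against -0.26 to 0.21). The shERK2 array stood at the upper edge of the range for PMEL (0.21). The part of RNA quality in these readings was not tested.

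**Figure D1:**
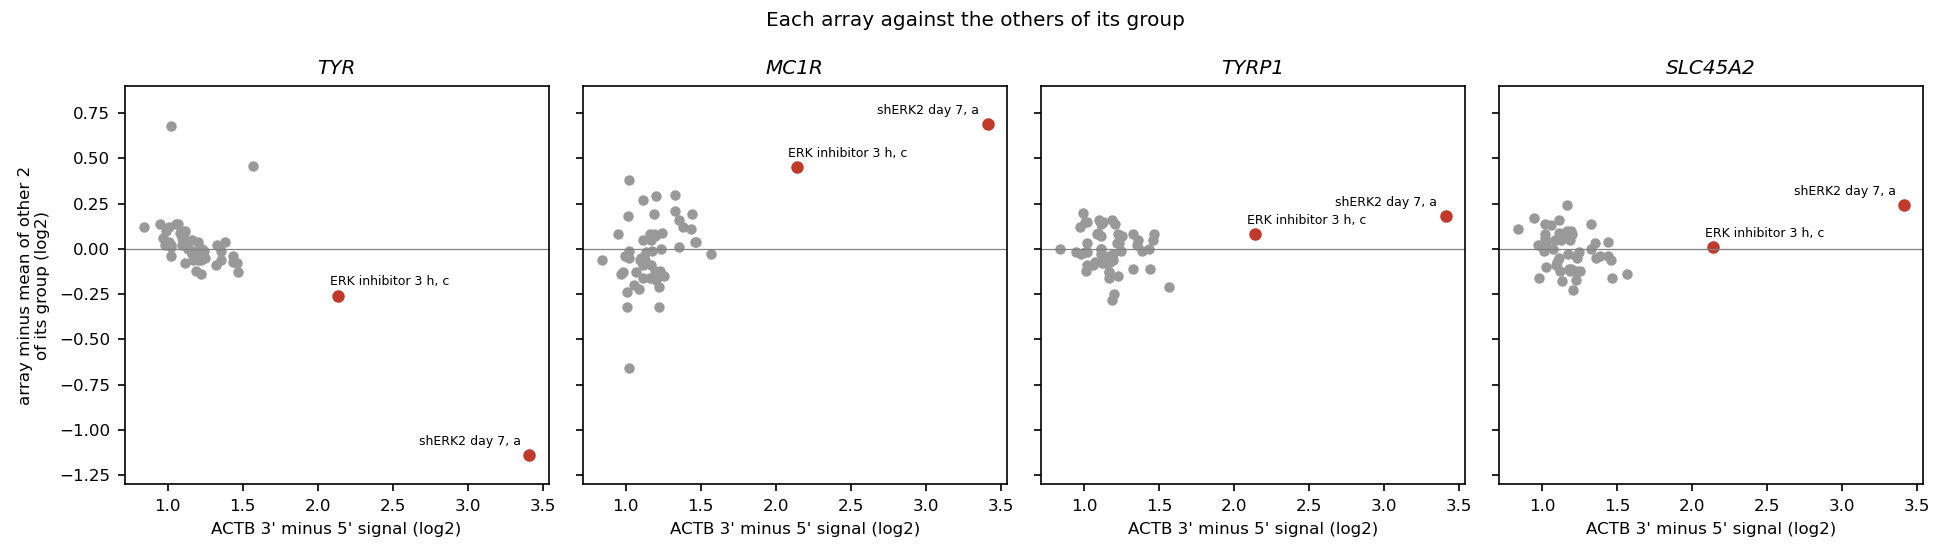
Distance of each array from the mean of the other 2 arrays of its group (log2, vertical axis) against its ACTB 3′ minus 5′ control signal (log2, horizontal axis) for 4 genes. Each point is 1 of 54 arrays; the red points are array a of shERK2 at day 7 and array c of the ERK inhibitor at 3 h, which lie low for TYR (-1.14 and -0.26) and high for MC1R (0.69 and 0.45), while the isolated grey points of TYR and MC1R are the other arrays of shERK2 at day 7, set against a mean that includes array a.

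Within 3 h of inhibition, TYRP1 and TRPM1 rose with all 4 drugs and MC1R fell with LGX818 and both MEK inhibitors. The rises of these 2 genes ran from 1.47- to 1.70-fold. PMEL, TYR, SLC45A2 and GPR143 did not pass the test with any drug at this time. In order LGX818, trametinib, MEK162 and ERK inhibitor, 2, 2, 2 and 3 of the 8 genes rose, where 5.27%, 5.09%, 6.38% and 5.51% of all genes tested rose. Another 1, 1, 1 and 0 fell, where 6.43%, 6.18%, 6.77% and 4.87% of all genes fell.

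TYRP1, of the tyrosinase family, read 11.54, 11.58 and 11.32 with DMSO at 3 h. It read 12.11, 12.23 and 12.06 with LGX818, 12.12, 12.14 and 12.11 with trametinib, 12.11, 12.13 and 11.85 with MEK162, and 12.02, 11.99 and 12.09 with the ERK inhibitor. Every treated array lay above every DMSO array. The differences were 0.65, 0.64, 0.55 and 0.55 (SE 0.072, n = 3 in each group; limma, adjusted p = 1.14e-07, 2.23e-07, 2.03e-06 and 2.93e-06). Without array c of the ERK inhibitor its value for TYRP1 was 0.52 (adjusted p = 4.14e-05).

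TRPM1 read 7.61, 7.77 and 7.68 with DMSO at 3 h, and between 8.12 and 8.58 on the 12 treated arrays. Every treated array lay above DMSO, whose mean of 7.69 was below the level filter. The differences were 0.57, 0.64, 0.77 and 0.59 (SE 0.095; limma, adjusted p = 6.61e-05, 1.70e-05, 8.12e-07 and 7.26e-05). Without array c of the ERK inhibitor its TRPM1 value was 0.56 (adjusted p = 0.000685).

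MC1R moved the other way. It read 10.36, 10.24 and 10.59 with DMSO at 3 h, 9.78, 9.80 and 9.98 with LGX818, 9.95, 9.78 and 10.24 with trametinib, 9.83, 9.89 and 10.05 with MEK162, and 9.91, 10.04 and 10.43 with the ERK inhibitor. Array c was the highest in all 5 groups, and of the 4 drug groups the ERK inhibitor's overlapped DMSO, while trametinib array c lay just below the lowest DMSO array. The falls were 0.54, 0.41 and 0.48 with LGX818, trametinib and MEK162 (SE 0.117; limma, adjusted p = 0.00156, 0.0199 and 0.00519). With the ERK inhibitor the difference was -0.27 (adjusted p = 0.145; 95% interval -0.51 to -0.03), and without its array c, described above, it was -0.42 (adjusted p = 0.0200). The trametinib call was lost without DMSO array c, trametinib array a or trametinib array b (adjusted p = 0.124, 0.0737 and 0.105), and with only the groups compared in the fit (adjusted p = 0.0649), which are 4 of 15 alternatives.

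MLANA read 11.99, 12.06 and 11.96 with DMSO at 3 h and 12.20, 12.13 and 12.15 with the ERK inhibitor, without overlap. The rise of 0.155 (SE 0.049; limma, adjusted p = 0.0427) was lost under 8 of 15 alternatives, with adjusted p up to 0.322, among them the fit without array c of the ERK inhibitor (0.16; adjusted p = 0.0924). PMEL stood 0.08 to 0.22 above DMSO with the 4 drugs and missed the threshold each time (adjusted p = 0.659, 0.112, 0.140 and 0.131).

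**Figure D2:**
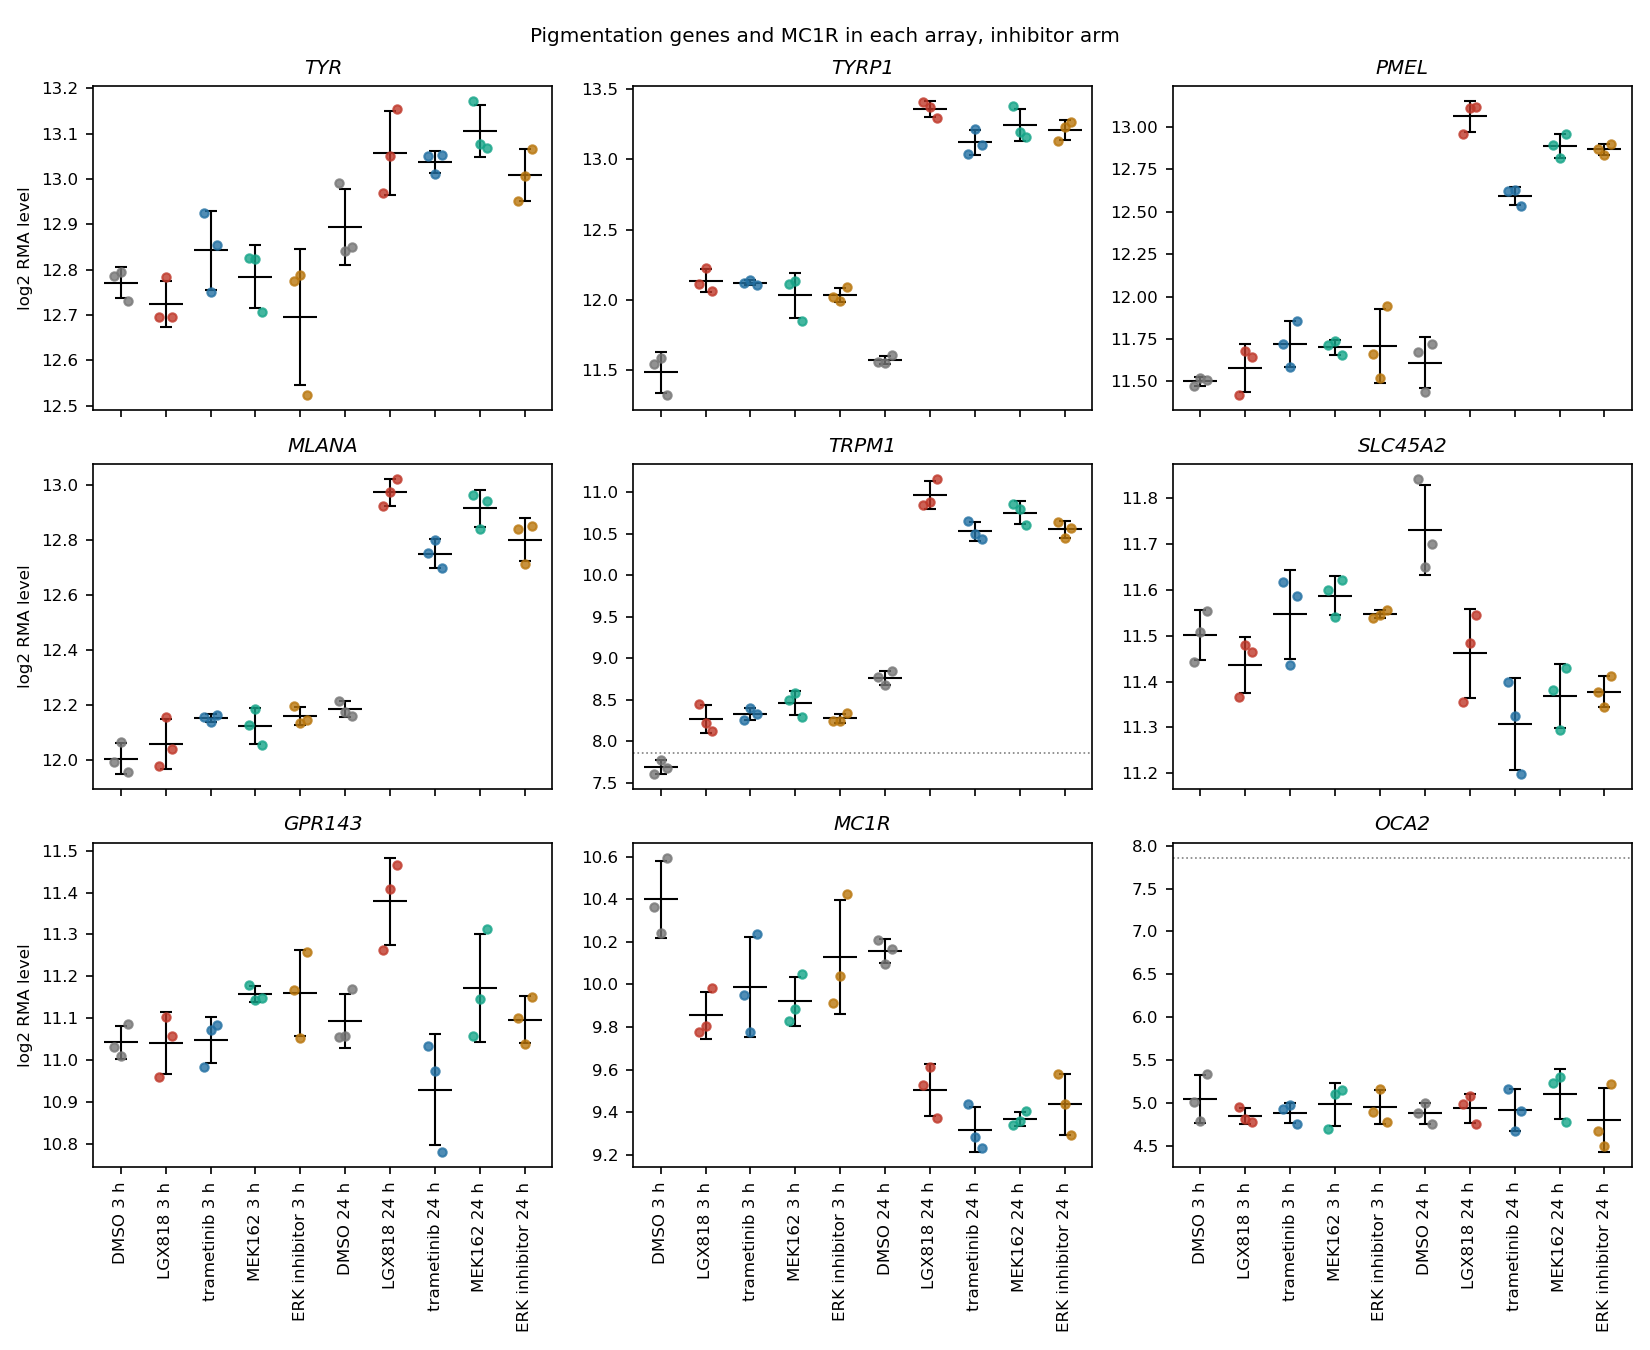
Log2 RMA level (vertical axis) of 9 genes in each group of the inhibitor arm (horizontal axis, 3 h groups left, 24 h groups right). Coloured points are single arrays, black bars the mean and SD of 3 arrays, and the dotted line the level filter of 7.86; the 24 h inhibitor groups stand above all others for TYRP1, PMEL, MLANA and TRPM1 and below all others for MC1R, and each panel has its own scale.

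By 24 h the fibril protein gene PMEL and the diagnostic marker MLANA had joined TYRP1 and TRPM1, and these 4 genes rose with every inhibitor by 1.48- to 4.6-fold. SLC45A2 and MC1R fell with every inhibitor. TYR moved by at most 0.21, and GPR143 moved in different directions. Of the 8 genes, 6, 5, 5 and 4 rose with LGX818, trametinib, MEK162 and the ERK inhibitor, and 2, 3, 2 and 2 fell. At this time a large share of all genes moved: 35.4%, 31.6%, 33.4% and 33.6% rose, and 33.8%, 33.0%, 33.8% and 31.5% fell. The median difference of the 8 genes was 0.54, 0.36, 0.47 and 0.37, against 0.016, -0.0033, 0.0007 and 0.016 for all genes.

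The synthesis enzymes differed from each other in how far they moved. TYR, whose product catalyses the rate-limiting step, read 12.99, 12.84 and 12.85 with DMSO at 24 h and between 12.95 and 13.17 on the 12 treated arrays. Its rises were 0.16, 0.14 and 0.21 with LGX818, trametinib and MEK162 (SE 0.061; limma, adjusted p = 0.0194, 0.0414 and 0.00337), and the value with the ERK inhibitor was 0.11 (adjusted p = 0.101). The LGX818 and ERK inhibitor arrays overlapped those of DMSO. These small rises were no longer called when all 54 arrays shared 1 fit (adjusted p = 0.261, 0.339 and 0.145). That fit includes array a of shERK2 at day 7, which read TYR at 11.54. Of 15 alternatives, 5 lost the LGX818 call, 9 the trametinib call and 1 the MEK162 call.

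TYRP1 read 11.55, 11.55 and 11.60 with DMSO at 24 h. It read 13.41, 13.37 and 13.30 with LGX818, 13.04, 13.22 and 13.10 with trametinib, 13.38, 13.20 and 13.16 with MEK162, and 13.13, 13.23 and 13.27 with the ERK inhibitor. The treated arrays all stood far above DMSO, and each treated group overlapped its neighbour in the order of their means. The rises were 3.46-, 2.93-, 3.20- and 3.12-fold (log2 1.79, 1.55, 1.68 and 1.64, SE 0.072; limma, adjusted p = 5.58e-18, 1.93e-16, 2.64e-17 and 5.98e-17).

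PMEL read 11.67, 11.44 and 11.72 with DMSO at 24 h. It read 12.96, 13.11 and 13.12 with LGX818, 12.62, 12.63 and 12.53 with trametinib, 12.89, 12.81 and 12.96 with MEK162, and 12.87, 12.84 and 12.90 with the ERK inhibitor. The trametinib arrays were the lowest of the treated ones and overlapped no other treated group. The rises were 2.74-, 1.98-, 2.42- and 2.39-fold (log2 1.45, 0.98, 1.28 and 1.26, SE 0.086; limma, adjusted p = 3.27e-14, 1.35e-10, 5.35e-13 and 9.36e-13).

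MLANA read 12.22, 12.17 and 12.16 with DMSO at 24 h, and its 12 treated arrays ran from 12.70 to 13.02. Every treated array lay above DMSO, as for PMEL, at a smaller distance. The rises were 1.73-, 1.48-, 1.66- and 1.54-fold (log2 0.79, 0.57, 0.73 and 0.62, SE 0.049; limma, adjusted p = 8.91e-14, 1.09e-10, 4.81e-13 and 2.01e-11).

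TRPM1, the channel gene, had the largest difference of the 8 with each drug. It read 8.77, 8.67 and 8.84 with DMSO at 24 h, 10.84, 10.88 and 11.15 with LGX818, 10.65, 10.49 and 10.43 with trametinib, 10.86, 10.80 and 10.60 with MEK162, and 10.64, 10.44 and 10.57 with the ERK inhibitor. The rises were 4.6-, 3.40-, 3.98- and 3.46-fold (log2 2.20, 1.77, 1.99 and 1.79, SE 0.095; limma, adjusted p = 2.60e-17, 4.78e-15, 2.57e-16 and 3.59e-15). DMSO cells themselves rose between 3 h and 24 h, from a mean of 7.69 to 8.76 (log2 1.07; adjusted p = 2.71e-09), so the 24 h controls were not at the 3 h level. In the same DMSO comparison MLANA rose by 0.18 and SLC45A2 by 0.23 (adjusted p = 0.00653 and 0.00558), and 31.4% of all genes were called.

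The transporter SLC45A2 fell while the structural genes rose. It read 11.84, 11.65 and 11.70 with DMSO at 24 h, and its 12 treated arrays ran from 11.20 to 11.55, all below DMSO. The falls were 1.21-, 1.34-, 1.29- and 1.28-fold (log2 -0.27, -0.42, -0.36 and -0.35, SE 0.062; limma, adjusted p = 0.000388, 1.17e-06, 1.05e-05 and 1.64e-05). At 3 h its 4 differences had lain between -0.07 and 0.09, and none was called. The DMSO mean itself was 11.50 at 3 h and 11.73 at 24 h, and the treated means at 24 h ran from 11.31 to 11.46.

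GPR143, the melanosomal receptor, read 11.06, 11.06 and 11.17 with DMSO at 24 h, 11.26, 11.41 and 11.46 with LGX818, and 11.04, 10.98 and 10.78 with trametinib. The LGX818 arrays lay above DMSO and the trametinib arrays below it. With LGX818 it rose by 0.28 (SE 0.071; limma, adjusted p = 0.000868) and with trametinib it fell by 0.16 (adjusted p = 0.0445), a call that 7 of 15 alternatives lost, with adjusted p up to 0.307. With MEK162 and the ERK inhibitor it stood at 0.08 and 0.0032 (adjusted p = 0.337 and 0.971).

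MC1R, the hormone receptor, fell further than at 3 h with trametinib and the ERK inhibitor. It read 10.21, 10.10 and 10.17 with DMSO at 24 h, 9.53, 9.61 and 9.37 with LGX818, 9.44, 9.29 and 9.23 with trametinib, 9.34, 9.36 and 9.41 with MEK162, and 9.58, 9.44 and 9.29 with the ERK inhibitor. All 12 treated arrays lay below DMSO, and the 4 treated groups overlapped their neighbours. The falls were 1.57-, 1.79-, 1.73- and 1.65-fold (log2 -0.65, -0.84, -0.79 and -0.72, SE 0.117; limma, adjusted p = 2.08e-05, 6.04e-07, 1.43e-06 and 5.99e-06). The effect changed from 3 h to 24 h by -0.43 with trametinib (adjusted p = 0.0340) and by -0.45 with the ERK inhibitor (adjusted p = 0.0269). With LGX818 and MEK162 the values were -0.11 and -0.31 (adjusted p = 0.615 and 0.123). The 2 calls were lost under 10 and 6 of 21 alternatives, with adjusted p up to 0.134 and 0.108, and without array c of the ERK inhibitor at 3 h the second was -0.30 (adjusted p = 0.108).

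Compared in this way, the effects at 24 h and 3 h differed for 6, 6, 5 and 6 of the 8 genes with LGX818, trametinib, MEK162 and the ERK inhibitor, where 52.0%, 49.7%, 50.9% and 48.7% of all genes did. TYRP1, PMEL, MLANA and TRPM1 gained with every drug between the times. For PMEL the gain was 1.37, 0.76, 1.08 and 1.05. SLC45A2 moved by -0.47, -0.45 and -0.40 with trametinib, MEK162 and the ERK inhibitor (limma, adjusted p = 6.58e-05, 0.000107 and 0.000432), and -0.20 with LGX818 missed the threshold (adjusted p = 0.0516).

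In the same 24 h groups, 6 of 6 proliferation markers fell with every inhibitor. Their summed log2 level was 68.2 with DMSO and 44.5, 50.8, 44.9 and 50.9 with LGX818, trametinib, MEK162 and the ERK inhibitor, against 68.2 to 68.8 at 3 h. Their part in the pigmentation gene changes was not tested. In bulk RNA, fewer expressing cells and less RNA per cell cannot be told apart.

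The drugs were also set against each other at 24 h, at doses that differ, in 3 comparisons. LGX818 stood above the mean of both MEK inhibitors for PMEL (0.32), TRPM1 (0.32), GPR143 (0.33) and MLANA (0.14; limma, adjusted p = 0.00485, 0.0107, 0.000562 and 0.0340), which is 4 of 8 genes where 9.84% of all genes were called. The MLANA call was lost under 8 of 18 alternatives. Trametinib stood below MEK162 for PMEL (-0.29) and GPR143 (-0.24; adjusted p = 0.0474 and 0.0461), 2 of 8 genes where 4.59% of all genes were called. Each of these 2 calls was lost under 7 of 15 alternatives, with adjusted p up to 0.211 and 0.376.

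Between the ERK inhibitor and the mean of the MEK inhibitors, no difference passed the test. Of the 8 genes, 0 were called by limma and 0 had an unadjusted p under 0.05, where 4.96% of all genes were called. The 95% intervals of the 8 differences lay between -0.26 and 0.30. The interval for TYRP1 ran from -0.10 to 0.15 and that for MC1R from -0.11 to 0.30.

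**Figure D3:**
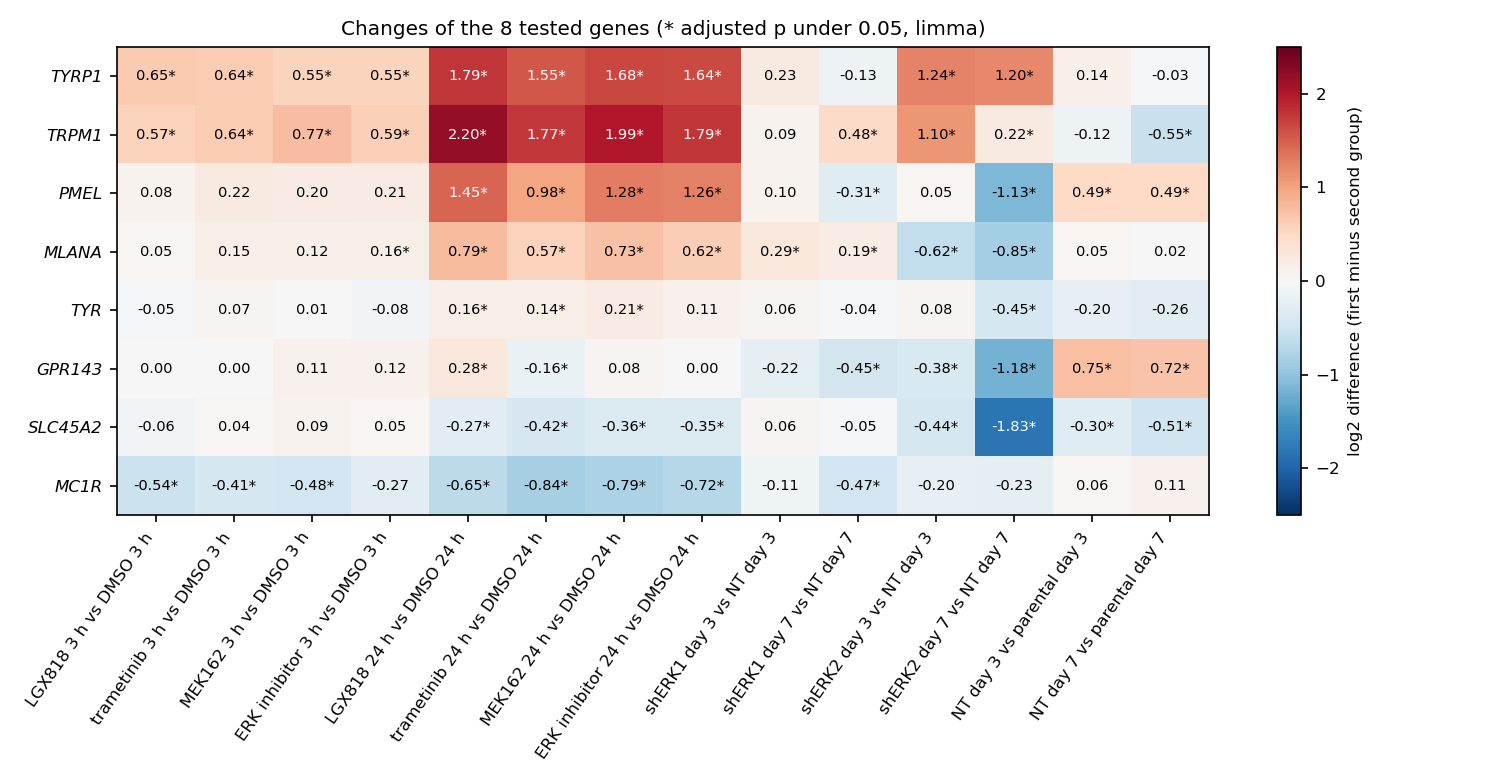
Log2 difference (colour and number) of the 8 tested genes (rows) in 14 comparisons (columns), with an asterisk where limma's adjusted p was under 0.05. TYRP1, TRPM1, PMEL and MLANA are red in all 4 inhibitor columns at 24 h and MC1R blue, while in the column of shERK2 at day 7 TYRP1 stays at 1.20 and PMEL, MLANA, GPR143 and SLC45A2 lie between -0.85 and -1.83.

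Against NT, TYRP1 rose and the melanosomal genes MLANA, SLC45A2 and GPR143 fell at both days in cells with shERK2, while GPR143 at day 3 stood above parental cells (0.37). At day 3 TYRP1 rose 2.36-fold and TRPM1 2.14-fold against NT. At day 7 TYRP1 remained 2.30-fold above NT, and PMEL, MLANA, SLC45A2 and GPR143 fell by 1.80- to 3.55-fold. Of the 8 genes, 2 rose and 3 fell at day 3, where 17.5% and 15.5% of all genes did, and 2 rose and 5 fell at day 7, where 32.8% and 31.5% did.

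TYRP1 read 11.48, 11.64 and 11.48 with NT at day 3 and 12.73, 12.87 and 12.71 with shERK2, and 11.33, 11.27 and 11.30 with NT at day 7 and 12.62, 12.52 and 12.36 with shERK2. The groups were apart at both days. The differences were 1.24 and 1.20 (SE 0.068; limma, adjusted p = 6.12e-12 and 2.28e-12). Without array a the day 7 value was 1.14 (adjusted p = 2.55e-12), and with array b alone 1.22 (adjusted p = 5.88e-11). Against parental cells the values were 1.37 and 1.16.

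TRPM1 read 8.44, 8.27 and 8.35 with NT at day 3 and 9.48, 9.40 and 9.47 with shERK2. At day 7 it read 8.05, 7.91 and 7.74 with NT and 8.12, 8.02 and 8.22 with shERK2, and the arrays overlapped. The rise of 1.10 at day 3 (SE 0.078; limma, adjusted p = 3.48e-10) was followed by 0.22 at day 7 (adjusted p = 0.0187), a call that 6 of 16 alternatives lost, with adjusted p up to 0.318. Against parental cells the day 7 value was -0.33 (adjusted p = 0.00104), and NT cells themselves lay 0.55 below parental cells at that day (adjusted p = 2.08e-05). The sign of the TRPM1 value at day 7 thus differed between the controls.

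PMEL read 12.34, 12.41 and 12.39 with NT at day 3 and 12.51, 12.39 and 12.38 with shERK2, which overlapped (0.05; limma, adjusted p = 0.661). At day 7 it read 12.76 on each of the 3 NT arrays and 11.77, 11.48 and 11.65 with shERK2. The fall of 1.13 (SE 0.075, 2.19-fold; adjusted p = 3.14e-11) was 1.20 without array a and 1.29 with array b alone. NT lay 0.49 above parental cells at both days (adjusted p = 7.01e-05 and 5.45e-05), and against parental cells shERK2 stood at 0.54 at day 3 and -0.64 at day 7 (adjusted p = 9.23e-06 and 2.95e-07).

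MLANA fell at both days and against both controls. It read 12.35, 12.41 and 12.40 with NT at day 3 and 11.85, 11.73 and 11.72 with shERK2, and 12.28, 12.29 and 12.29 with NT at day 7 and 11.53, 11.41 and 11.38 with shERK2. The falls were 0.62 and 0.85 (SE 0.056; limma, adjusted p = 1.66e-08 and 3.14e-11), and 0.57 and 0.83 against parental cells. Without array a the day 7 fall was 0.89, and with array b alone 0.88.

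SLC45A2 had the largest fall of the 8 genes at day 7 against NT. It read 11.48, 11.34 and 11.45 with NT at day 3 and 11.04, 10.86 and 11.03 with shERK2, then 11.36, 11.46 and 11.37 with NT at day 7 and 9.73, 9.50 and 9.47 with shERK2. The falls were 1.36-fold and 3.55-fold (log2 -0.44 and -1.83, SE 0.081; limma, adjusted p = 0.000193 and 3.33e-14). Against parental cells the day 7 value was -2.34, and against NT without array a it was -1.91.

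GPR143 read 11.90, 11.95 and 11.91 with NT at day 3 and 11.58, 11.56 and 11.47 with shERK2, and 11.71, 11.78 and 11.68 with NT at day 7 and 10.65, 10.50 and 10.46 with shERK2. The falls were 0.38 and 1.18 (SE 0.075; limma, adjusted p = 0.000423 and 1.50e-11). NT cells lay 0.75 and 0.72 above parental cells at the same days (adjusted p = 1.97e-07 and 2.77e-07), and against parental cells shERK2 stood at 0.37 at day 3 and -0.46 at day 7 (adjusted p = 0.000762 and 2.04e-05). At day 3 the sign therefore differed between the controls, and at day 7 both differences were falls. Without array a the day 7 values were -1.24 against NT and -0.52 against parental cells.

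Against NT at day 7, the calls of TYR and MC1R depended on array a. TYR read 11.54, 12.75 and 12.61 on arrays a, b and c with shERK2 and 12.69, 12.78 and 12.77 with NT. The fall of 0.45 (SE 0.171; limma, adjusted p = 0.0274) became 0.066 without array a (adjusted p = 0.175), and with array b alone the value was 0.0069 (adjusted p = 0.913). MC1R read 10.54, 9.64 and 10.06 with shERK2 and 10.34, 10.21 and 10.39 with NT. Its difference of -0.23 (SE 0.142; adjusted p = 0.152) became -0.46 without array a (adjusted p = 0.000854) and -0.67 with array b alone (adjusted p = 4.98e-05). Against parental cells TYR fell by 0.71 and by 0.33 without array a (limma, adjusted p = 0.00131 and 7.46e-07), so that this call did not depend on that array. With array b alone the fall was 0.25. The call was lost under 1 of 16 alternatives (limma, adjusted p = 0.0952). NT cells themselves lay below parental cells for TYR at day 7 (means 12.75 and 13.01). MC1R stood at -0.13 against parental cells, at -0.35 without array a and at -0.57 with array b alone (adjusted p = 0.455, 0.00816 and 0.000398). At day 3 no array stood apart, and TYR stood at 0.08 and MC1R at -0.20 (limma, adjusted p = 0.777 and 0.307). These p-values rest on a spread shared by all groups of the arm, array a of day 7 included. TYR read 12.80, 12.84 and 12.83 with shERK2 at day 3 and 12.75, 12.73 and 12.76 with NT, without overlap.

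**Figure D4:**
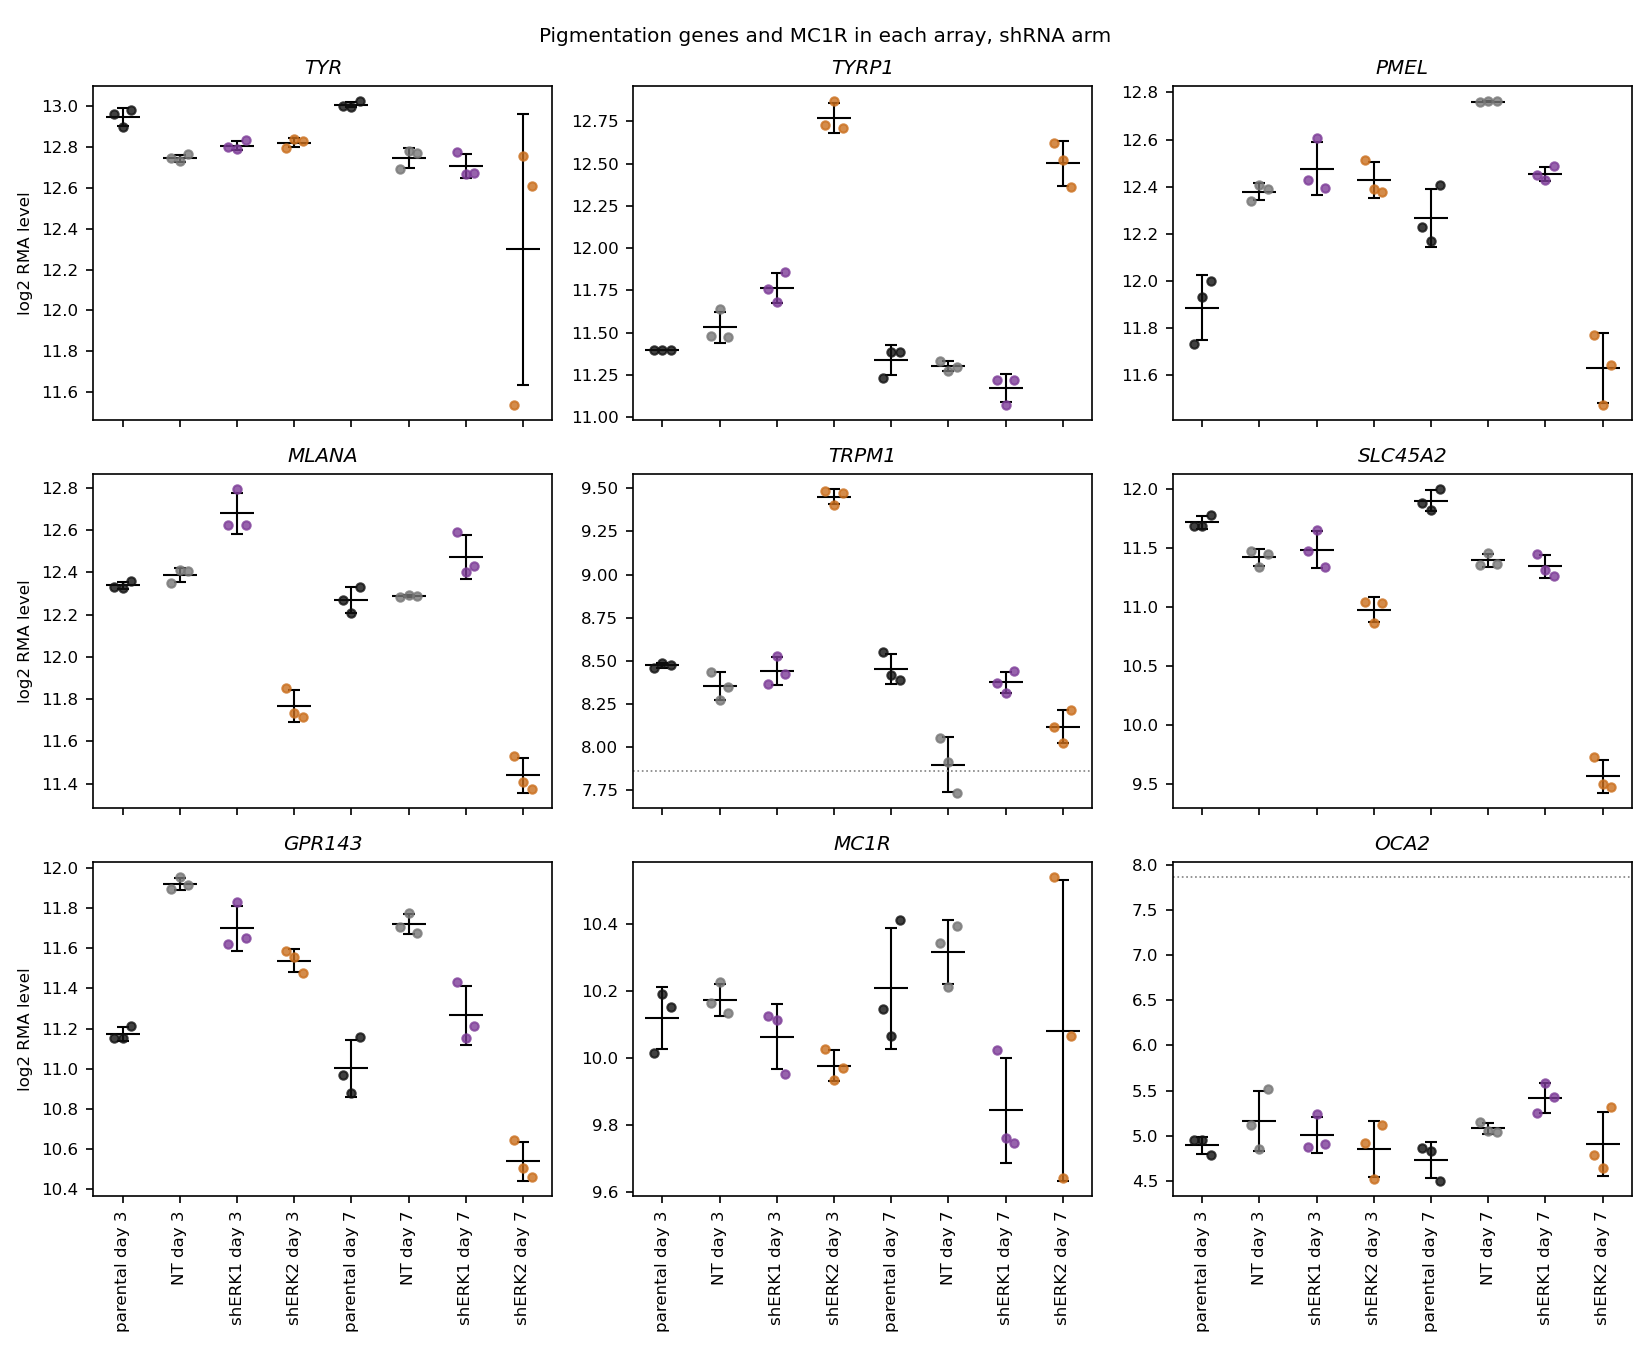
Log2 RMA level (vertical axis) of 9 genes in each group of the shRNA arm (horizontal axis, day 3 groups left, day 7 groups right). Coloured points are single arrays in the order a, b, c, black bars the mean and SD of 3 arrays, and the dotted line the level filter of 7.86; array a of shERK2 at day 7 stands alone at 11.54 for TYR, and SLC45A2 is lowest in that group, at a mean of 9.57.

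Between days 3 and 7 the effect of shERK2 against NT fell for PMEL by 1.18, for SLC45A2 by 1.39, for TRPM1 by 0.88, for GPR143 by 0.80 and for MLANA by 0.23 (limma, adjusted p = 8.01e-08, 2.33e-08, 5.53e-06, 1.09e-05 and 0.0442). These are 5 of 8 genes where 23.9% of all genes were called. TYRP1 differed by -0.04 between the days (adjusted p = 0.821; 95% interval -0.24 to 0.16). The MLANA call was lost under 15 of 22 alternatives. In NT cells alone, PMEL rose by 0.38 and TRPM1 fell by 0.45 between the days (adjusted p = 0.00464 and 0.00191), 2 of 8 genes where 5.50% of all genes were called, and the controls thus differed between the days. The 6 proliferation markers fell with shERK2 at day 7, to a summed log2 level of 63.3 against 67.7 with NT, and their part in the result was not tested.

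With shERK1 at day 3, MLANA rose by 0.29 against NT (SE 0.056; limma, adjusted p = 0.00306), 1 of 8 genes where 4.66% of all genes were called. At day 7 TRPM1 rose by 0.48 and MLANA by 0.19, and PMEL fell by 0.31, GPR143 by 0.45 and MC1R by 0.47 (adjusted p = 0.000174, 0.0255, 0.00661, 0.000191 and 0.0238). These are 5 of 8 genes where 17.9% of all genes were called, and leaving out 1 array at a time gave 3 or 4. The MLANA call was lost under 4 of 15 alternatives, with adjusted p up to 0.145. Against parental cells at day 7, TRPM1 stood at -0.08 and PMEL at 0.19 (adjusted p = 0.473 and 0.0550), and GPR143 stood above (0.26; adjusted p = 0.00775), so that the signs of these 3 genes differed between the controls. MC1R read 10.02, 9.76 and 9.75 with shERK1 and 10.34, 10.21 and 10.39 with NT at day 7, and 4 of 15 alternatives lost the call, with adjusted p up to 0.0978. TYRP1 stood at 0.23 and -0.13 at days 3 and 7 (adjusted p = 0.0531 and 0.205).

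Against parental cells, shERK1 changed 5 of 8 genes at day 3, where 21.2% of all genes were called, and 4 of 8 at day 7, where 39.6% were. The same test called 6 and 7 of 8 for shERK2 (27.0% and 60% of all genes) and 3 and 4 of 8 for NT (11.9% and 16.4%). GPR143 stood above parental cells with shERK1 at both days (0.53 and 0.26; adjusted p = 1.67e-05 and 0.00775), and SLC45A2 stood below (-0.23 and -0.56; adjusted p = 0.0465 and 1.04e-05). The day 3 call of SLC45A2 was lost under 8 of 15 alternatives, with adjusted p up to 0.229. NT cells differed from parental cells in the same directions, by 0.75 and 0.72 for GPR143 and by -0.295 and -0.51 for SLC45A2. The shRNA groups share their controls, so these values stand side by side. All these calls rest on a spread shared by the arm, array a of shERK2 at day 7 included.

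The shRNAs differed from each other. At day 3 shERK2 stood above shERK1 for TYRP1 (1.004) and TRPM1 (1.01) and below it for MLANA (-0.91) and SLC45A2 (-0.51; limma, adjusted p = 1.31e-10, 1.12e-09, 2.67e-11 and 3.95e-05), 4 of 8 genes where 35.5% of all genes were called. At day 7, 7 of 8 were called where 68.7% of all genes were, with TYRP1 at 1.33, PMEL at -0.82, MLANA at -1.03 and SLC45A2 at -1.78. TYR, among the 7, stood at -0.41 (adjusted p = 0.0407) and at -0.03 without array a of shERK2 (adjusted p = 0.603).

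**Figure D5:**
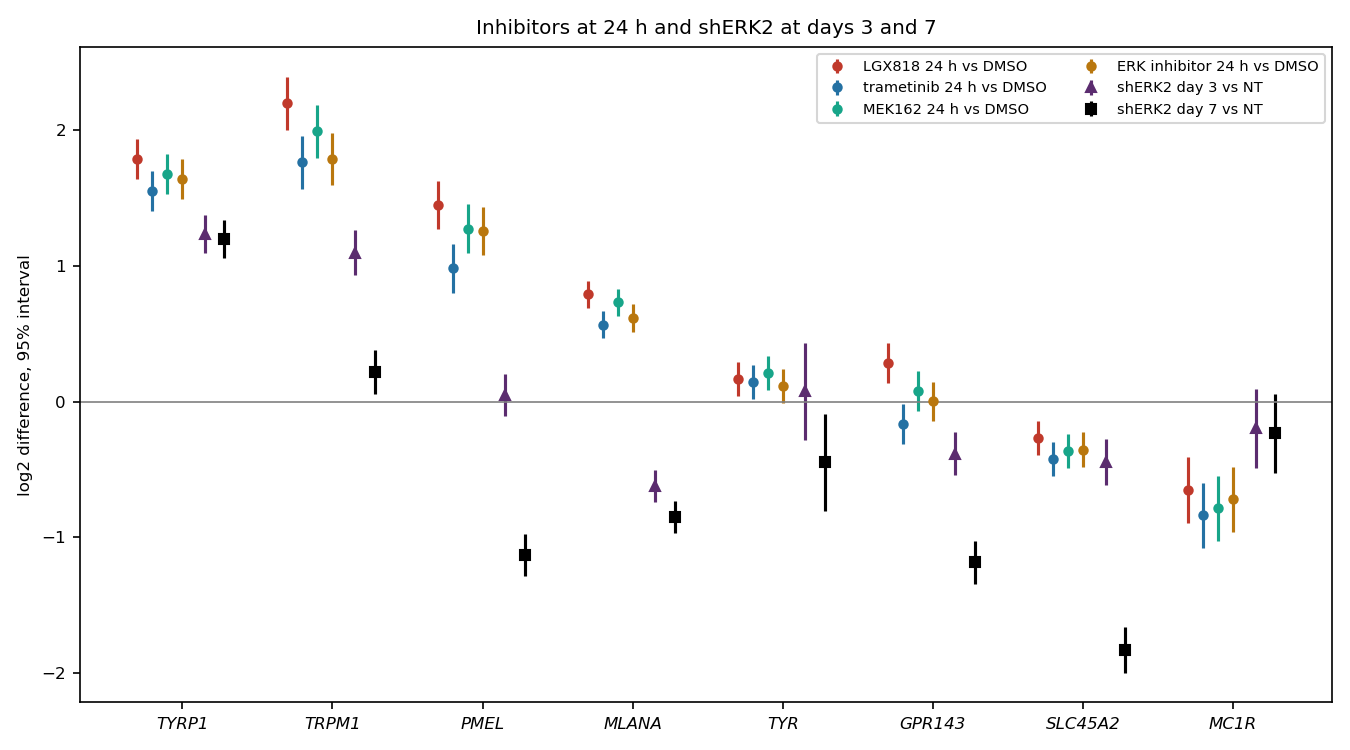
Log2 difference with its 95% interval (vertical axis) of the 8 tested genes (horizontal axis) for the 4 inhibitors at 24 h against DMSO (circles) and for shERK2 against NT at day 3 (triangles) and day 7 (squares). For PMEL and MLANA the circles lie above 0 (0.57 to 1.45) and the day 7 squares below (-1.13 and -0.85), while all symbols of TYRP1 lie above 1.

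The effect of shERK2 was then set against the mean effect of the 4 inhibitors at 24 h, in a comparison added with these results known. The arms differ in control, duration and means of intervention, so a difference between them cannot be told apart from these. The mean inhibitor change was 1.67 for TYRP1, 1.94 for TRPM1, 1.24 for PMEL, 0.68 for MLANA, 0.16 for TYR, 0.05 for GPR143, -0.35 for SLC45A2 and -0.75 for MC1R. At day 3, shERK2 lay below it by 1.299 for MLANA, 1.19 for PMEL, 0.84 for TRPM1, 0.43 for GPR143 and 0.43 for TYRP1, and above it by 0.55 for MC1R (limma, adjusted p = 8.63e-21, 8.95e-13, 2.73e-08, 0.000138, 0.000128 and 0.00649). SLC45A2 differed by -0.09 (adjusted p = 0.422). These are 6 of 8 genes where 48.3% of all 10026 genes tested were called.

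At day 7 all 8 genes were called, where 47.9% of all genes were. The differences were -2.37 for PMEL, -1.72 for TRPM1, -1.53 for MLANA, -1.48 for SLC45A2, -1.23 for GPR143, -0.61 for TYR, -0.47 for TYRP1 and 0.51 for MC1R (limma, adjusted p from 5.46e-23 to 0.0113). Without array a MC1R stood at 0.29 (adjusted p = 0.134) and TYR at -0.22 (adjusted p = 0.00980). With array b alone TYR stood at -0.15 and MC1R at 0.07.

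MITF and SOX10, lineage factors of melanocytes, were measured beside these genes. MITF rose at 3 h with every inhibitor by 0.47, 0.44, 0.48 and 0.37 (SE 0.048; limma, adjusted p = 3.44e-08, 1.46e-07, 2.03e-08 and 2.91e-06). At 24 h it stood at -0.01 and -0.02 with LGX818 and MEK162 (adjusted p = 0.878 and 0.675) and fell by 0.16 with trametinib (adjusted p = 0.00530) and by 0.18 with the ERK inhibitor (adjusted p = 0.00148), while DMSO cells had gained 0.52 between the times (adjusted p = 5.57e-09). With shERK2 MITF stood at -0.22 at day 3 (adjusted p = 0.0741) and fell by 0.89 at day 7 (SE 0.094; adjusted p = 5.46e-08), where it read 11.31, 11.96 and 11.69 against 12.55, 12.59 and 12.47 with NT. Without array a the MITF fall was 0.71 (adjusted p = 1.29e-09) and the SOX10 value 0.298 (adjusted p = 0.000372), and without array c of the ERK inhibitor at 3 h the MITF rise was 0.385 (adjusted p = 1.06e-05). SOX10 rose with every inhibitor at 24 h (0.41, 0.26, 0.37 and 0.38) and with shERK2 at both days (0.28 and 0.31; adjusted p = 0.00101 and 0.000129).

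Among 12 melanocyte transcription factors, 10 were tested in each arm. With LGX818, trametinib, MEK162 and the ERK inhibitor at 24 h, 5, 5, 5 and 6 rose and 2, 3, 2 and 3 fell, where 31.6% to 35.4% of all genes rose and 31.5% to 33.8% fell. The largest rises were those of ZEB2 (2.26, 2.18, 2.04 and 2.09), a factor of melanocyte differentiation, and TFAP2A (1.72, 1.74, 1.84 and 1.69). The largest falls were those of ZEB1 (-1.74, -1.43, -1.61 and -1.38) and LEF1 (-0.99, -0.97, -1.005 and -0.94). With shERK2 at day 7 against NT, 5 rose and 4 fell, with and without array a, where 32.8% and 31.5% of all genes did (31.4% and 33.7% without array a). ZEB2 stood at 1.64 and LEF1 at -0.97, and MITF was among the falls.

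Of 28 tested genes of melanosome biogenesis and transport, 15, 12, 14 and 14 rose and 3, 5, 3 and 3 fell at 24 h, with a median of 0.19, 0.12, 0.18 and 0.19, where 31.6% to 35.4% of all genes rose and 31.5% to 33.8% fell. MLPH, which links melanosomes to myosin, rose by 1.49, 1.09, 1.23 and 1.28, and LYST, mutated in Chediak-Higashi syndrome, by 1.41, 1.25, 1.29 and 1.09. HPS5, a subunit of a complex that sorts melanosomal proteins, fell (-0.52, -0.72, -0.68 and -0.59). With shERK2 at day 7, 5 of 27 rose and 10 fell (3 and 10 without array a), where 32.8% and 31.5% of all genes did, with APOE at -1.29 and RAB27A, which tethers melanosomes, at -0.88.

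Of 10 tested melanosome channels and transporters, 9, 6, 8 and 6 rose and 1, 2, 1 and 1 fell at 24 h, where 31.6% to 35.4% of all genes rose and 31.5% to 33.8% fell. The copper pump ATP7A, which supplies the metal to tyrosinase, rose by 1.88, 1.62, 1.89 and 1.47, and the cystine transporter CTNS by 1.23, 0.82, 1.02 and 1.06. SLC7A11, which imports cystine, fell (-1.12, -1.37, -1.26 and -1.68). With shERK2 at day 7, 6 rose and 1 fell (7 and 2 without array a), where 32.8% and 31.5% of all genes did, with CTNS at 1.14 and SLC7A11 at -1.01.

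Of 20 tested genes of MC1R and cAMP signalling, 8, 5, 8 and 7 rose and 8, 7, 7 and 6 fell at 24 h, near the shares of all genes, of which 31.6% to 35.4% rose and 31.5% to 33.8% fell. PRKAR2B, a regulatory subunit of protein kinase A, fell (-2.09, -1.40, -1.74 and -1.32), as did PDE4B (-1.83, -1.51, -1.74 and -1.27), which degrades cAMP. ADCY9, an adenylyl cyclase, rose by 0.65, 0.71, 0.59 and 0.67. At 3 h, SIK1, a kinase induced by cAMP, had fallen (-1.27, -1.10, -1.22 and -1.05), and its value with the ERK inhibitor was -1.02 without array c. With shERK2 at day 7, 3 rose and 7 fell (4 and 7 without array a), where 32.8% and 31.5% of all genes did, with PRKAR2B at -1.47.

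Of 18 tested other lineage genes, 13, 11, 13 and 11 rose and 4 fell with each inhibitor at 24 h, where 31.6% to 35.4% of all genes rose and 31.5% to 33.8% fell. TSPAN10 rose by 2.61, 1.83, 2.19 and 2.16, and CDK2, a target of MITF, fell (-1.54, -1.58, -1.82 and -1.41). With shERK2 at day 7, 1 of 19 rose and 11 fell (1 and 10 without array a), where 32.8% and 31.5% of all genes did, with the coregulator CITED1 at -2.32 and PPARGC1A at -1.34, against a list median of -0.29 and 0.013 for all genes.

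Across the 18 group means, each arm centred on its own mean, the 8 genes differed in pattern. Of 28 pairs, 3 had r over 0.8: PMEL with TRPM1 (0.84), TYRP1 with TRPM1 (0.83) and PMEL with MLANA (0.83). MC1R ran against TRPM1 (-0.88), TYRP1 (-0.79) and PMEL (-0.74), and SLC45A2 against TYRP1 (-0.52). These values describe 18 points that share controls, arrays and cell line. The mean of shERK2 at day 7 includes array a, and the correlations were not computed without it.

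Of 9448 genes tested in both arms, the gene nearest to TYRP1 over the same 18 means was SLC1A4, an amino acid transporter (r = 0.98), followed by ZEB2 and ESRP1 (both 0.98). OSBPL1A was nearest to TRPM1 (0.98), SERPINF1 to PMEL (0.98) and MAP1LC3B to MLANA (0.96). TRIL was nearest to SLC45A2 (0.96), AKAP12 to TYR (0.95) and NDUFB9 to GPR143 (0.85). The genes nearest to MC1R were MFSD2A (0.95) and the chemokine CXCL1 (0.95). For TYR and MC1R the mean of shERK2 at day 7 includes array a, which read 11.54 and 10.54. Arrays b and c read 12.75 and 12.61 for TYR and 9.64 and 10.06 for MC1R. Likeness without array a was not computed.

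In the order of group means, neighbouring groups often overlapped. In the inhibitor arm, 9 of 9 neighbouring pairs overlapped for TYR and for GPR143, 8 for MLANA and SLC45A2, 7 for MC1R, and 6 for TYRP1, PMEL and TRPM1. TYRP1 ran from 11.48 with DMSO at 3 h to 13.36 with LGX818 at 24 h, and TRPM1 from 7.69 to 10.96 between the same groups. In the shRNA arm, 1 of 7 neighbouring pairs overlapped for TYRP1, where both shERK2 groups were the highest (12.50 and 12.77), and 7 of 7 for MC1R, whose means ran from 9.84 to 10.32. OCA2 overlapped in all neighbouring pairs of both arms.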

How the data were processed

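RNA of 54 WM266-4 samples was measured on Affymetrix arrays in 18 groups of 3. The deposited values are log2 levels, summarised with RMA in affy per the submitters' processing notes, and the chip definition is not given in the sources used here. Probe sets were named from the platform's annotation, and only the 17875 genes with 1 symbol were used. The members and gene lists were chosen with earlier results of these data known, so counts of members and of list genes are descriptions.

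Each arm was fitted on its own with limma 3.58.1 (R 4.3.3), with 1 mean per group and an intensity trend, and p-values were adjusted by the Benjamini-Hochberg method over all genes tested in a comparison (threshold 0.05). Of 32 comparisons, 2 (shERK2 against the mean inhibitor effect) were added with results known and fitted on both arms together. Genes were tested where 1 group mean exceeded 7.86. Named list genes are those with the largest called changes in each list. The number of arrays limits the precision. Arrays with the same letter were checked for pairing. In 3 of 23 comparisons all 3 same-letter correlations exceeded 0.1, and a replicate block changed no call in those 3. At 3 h against DMSO, the correlations of array c were 0.584, 0.577, 0.686 and 0.598 (LGX818, trametinib, MEK162 and ERK inhibitor). Those of arrays a and b ran from -0.067 to 0.432. The block gave each letter the same effect in all groups of a fit. A letter effect present at 3 h only was therefore not tested. Alternatives are given in the closing section. Levels were not compared between genes.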

Additional observations from a re-analysis of the deposited data

Results flagged for a closer look

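The effect of an inhibitor against DMSO at 24 h differed from its effect at 3 h for the following genes, by a test of the difference itself in limma. With LGX818 the differences were 1.14 for TYRP1, 1.37 for PMEL, 0.74 for MLANA, 1.63 for TRPM1, 0.29 for GPR143 and 0.21 for TYR (adjusted p from 7.56e-11 for TRPM1 to 0.0433 for TYR). With trametinib they were 0.91 for TYRP1, 0.76 for PMEL, 0.42 for MLANA, 1.13 for TRPM1, -0.47 for SLC45A2 and -0.43 for MC1R. With MEK162 they were 1.13 for TYRP1, 1.08 for PMEL, 0.62 for MLANA, 1.22 for TRPM1 and -0.45 for SLC45A2. With the ERK inhibitor they were 1.09 for TYRP1, 1.05 for PMEL, 0.46 for MLANA, 1.20 for TRPM1, -0.40 for SLC45A2 and -0.45 for MC1R. TYR with LGX818 lost its call under 12 of 21 alternatives, with adjusted p up to 0.348. The DMSO groups of the times differ for TRPM1, MLANA and SLC45A2, and their part in these values was not tested.

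The effect of shERK2 against NT at day 7 differed from that at day 3 by -1.18 for PMEL, -0.23 for MLANA, -0.88 for TRPM1, -1.39 for SLC45A2 and -0.80 for GPR143. Without array a of shERK2 at day 7 the same differences were -1.25, -0.27, -0.88, -1.47 and -0.86.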

How the results depend on the processing

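Of 256 results on single genes, 152 were called, and 31 of these lost the call under at least 1 alternative. Of 4392 alternative values, 4079 kept both direction and side of the threshold. Only 2 called values changed sign: with array b alone for shERK2 at day 7, TYR stood at 0.0069 against NT (adjusted p = 0.913) and at 0.048 against shERK1 (adjusted p = 0.397). Array quality weights, whose estimation stopped before it converged, raised the count of called genes of the 8: to 7 with trametinib at 3 h, 7 with MEK162 at 3 h and 6 with the ERK inhibitor at 3 h (each 3 before), 5 for DMSO at 24 h against 3 h (3), 7 for LGX818 against the MEK inhibitors (4), 3 for shERK1 against NT at day 3 (1), 7 for shERK1 against parental cells at day 7 (4), 5 for NT against parental cells at day 3 (3) and 6 for NT at day 7 against day 3 (2). With only the groups compared in the fit, the counts were 1 for trametinib against MEK162 (2), 5 for NT against parental cells at day 3 and 5 for NT at day 7 against day 3. Trametinib against MEK162 gave 0 without the level filter and 0 without the intensity trend. shERK1 against NT at day 3 gave 2 with all 54 arrays in 1 fit and 2 with quantile normalization. The cause was not tested. Leaving out 1 array at a time gave 0 to 2 for trametinib against MEK162, 2 to 5 for LGX818 against the MEK inhibitors, 1 to 2 for shERK1 against NT at day 3, 3 to 4 at day 7 (5 before) and 2 to 4 for shERK1 against parental cells at day 7. With the array letter as a replicate block, 150 calls were kept and 2 were lost, which left 4 of 5 called genes for shERK1 against parental cells at day 3 and 4 of 5 for the shERK2 effect at day 7 minus day 3. The values with array b alone for shERK2 at day 7, and those of MITF, SOX10 and the gene lists without an array, were chosen after seeing the data. Having 3 arrays a group limits which small differences can be called.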
